A study of Mus musculus with 12 samples.

Results

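CD34+ITGA6+ keratinocytes, the gate used for hair follicle bulge stem cells, were compared with the other ITGA6+ basal keratinocytes of K14ΔNLef1 mice. The comparison rests on 6 of the 12 arrays of the study, chosen by their titles: 3 of CD34+ITGA6+ and 3 of ITGA6+ cells. It was made for every gene that the array annotation names with 1 symbol, 11287 in all, of which 5712 had signal enough to be tested. All mice were female and 9.5 weeks old, with follicles in the resting phase (telogen), and the cells were sorted from back skin epidermis. Every K14ΔNLef1 mouse carries a transgene in which the keratin 14 promoter, active in basal keratinocytes of epidermis and follicle, drives a Lef1 protein without its β-catenin-binding N-terminus, so both populations compared here express it. The other 6 arrays held the same 2 populations of wild-type (WT) mice and served to test where the population difference was not the same in the 2 genotypes. Each group's 3 arrays are biological replicates by their labels, which do not say whether mice were pooled. The p-values therefore measure only the spread between these arrays, which may be partly technical. The study's methods describe the ITGA6+ gate as CD34-negative, and 1 label field names the gates the other way round from the titles ("sorted basal" for the CD34+ITGA6+ arrays).

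The bulge is the permanent lower part of the resting hair follicle, below the sebaceous gland, and holds slow-cycling stem cells that rebuild the follicle at the next growth phase. Its cells are marked by Cd34, Lgr5 and Cd200 and depend on factors such as Lhx2, Sox9 and Nfatc1. Wnt signals that act through β-catenin and Lef/Tcf proteins start hair growth, whereas BMP signals hold the stem cells at rest. The ITGA6+ gate takes the remaining cells that sit on the basement membrane: interfollicular epidermis, infundibulum, isthmus and the base of the sebaceous gland.

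Values are log2 of the deposited array intensities, and a gene's value is the median over its probe sets, each of which covers about an exon. Differences are CD34+ITGA6+ minus ITGA6+, with the standard error (SE) of the limma fit and p adjusted (Benjamini-Hochberg) over all genes tested, called at 0.05. The median over all probe sets of an array lay between 7.35 and 7.63 on this scale, and a group mean near or below that level cannot be told from background, so for such genes the difference in signal is given and no fold change. In sorted populations, fewer cells of a type and less RNA per cell cannot be told apart.

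The sort markers followed the titles. Cd34, a sialomucin on the surface of bulge cells, read 11.65, 11.44 and 11.12 in the CD34+ITGA6+ arrays and 5.24, 5.59 and 5.17 in the ITGA6+ arrays. The groups lay 6.07 ± 0.19 (SE) apart (limma, adjusted p = 1.6e-10), which the gate itself selected for, and all 11 probe sets of Cd34 had the same sign. Lgr5, the R-spondin receptor of cycling and resting follicle stem cells, read 10.35, 10.03 and 9.24 against 5.17, 5.45 and 6.07. Cd200, an immune-inhibitory surface protein of bulge cells, read 11.20, 10.50 and 10.56 against 5.58, 5.96 and 6.77. Neither gene's groups overlapped, and both differences were called (4.31 ± 0.31 and 4.65 ± 0.34, adjusted p = 9.09e-07 for each).

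The keratinocyte identity of both gates showed in genes that hardly differed. The basal keratin Krt14 read 12.90, 12.42 and 12.74 in CD34+ITGA6+ cells and 12.99, 13.02 and 12.99 in ITGA6+ cells, near the top of the range in both. Krt5, Trp63 and Itgb1 were likewise high in both, with differences of -0.29, -0.20 and 0.23 that were not called. Krt15, often used as a bulge keratin, did not separate the gates: 12.89 ± 0.02 (SD, n = 3) against 12.72 ± 0.05 (SD, n = 3), a difference of 0.17 ± 0.15 (SE) with adjusted p = 0.526. Itga6, on which both gates select, was lower in CD34+ITGA6+ cells (11.04, 10.63 and 11.07 against 11.77, 11.48 and 11.56), by -0.69 ± 0.19 (SE) with adjusted p = 0.0246. That call was lost without CD34+ITGA6+ replicate 2 (adjusted p = 0.115), without ITGA6+ replicate 1 (0.103) and without ITGA6+ replicate 3 (0.0616). Lef1 probe sets, which also read the transgene, were at 12.66, 12.49 and 12.60 against 12.71, 12.55 and 12.68, and did not differ (-0.07 ± 0.24 (SE), adjusted p = 0.899). WT means were 6.51 and 6.21 in the same order of gates.

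**Figure D1:**
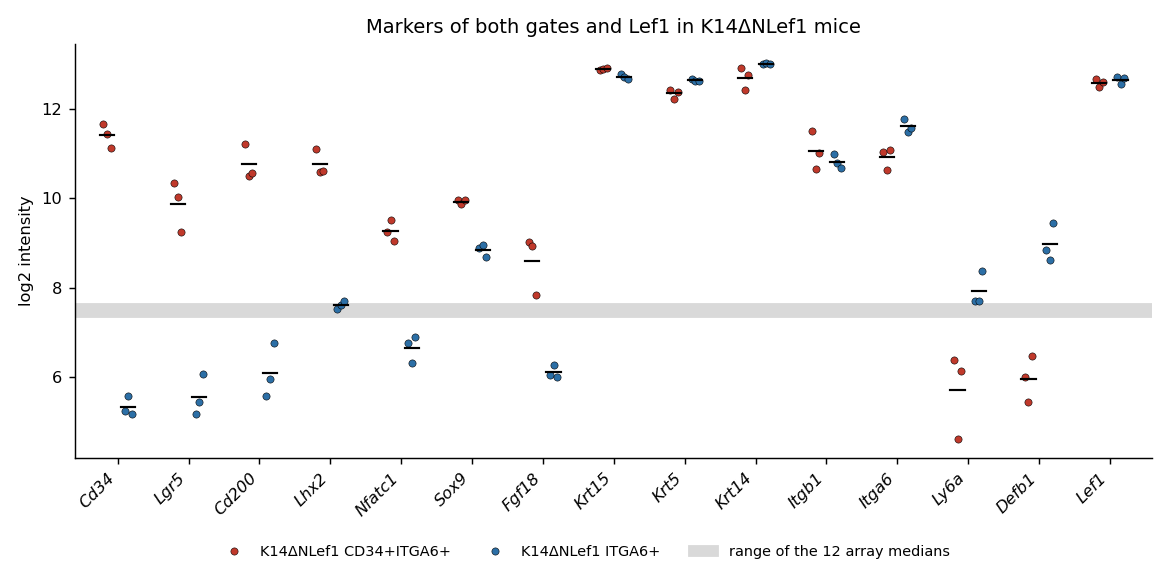
Log2 intensity (y axis) of markers of both gates and of Lef1 in each K14ΔNLef1 array, CD34+ITGA6+ in red and ITGA6+ in blue, with a bar at the mean of 3 arrays and the range of the 12 array medians in grey. Cd34, Lgr5 and Cd200 lie above 9 in every CD34+ITGA6+ array and below 7 in every ITGA6+ array, while Krt15, Krt5, Krt14 and Lef1 lie above 12 in all 6.

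Arrays of a group correlated at r = 0.920 to 0.932 over all probe sets. CD34+ITGA6+ replicate 2 ran low: its median deviation from the group mean over all tested genes was -0.13, against 0.12 for replicate 1 and 0.02 for replicate 3. Markers of other cells were mostly at background. None of 10 endothelial, 7 smooth muscle, 6 Merkel cell and 1 red cell marker had a group mean above the array medians in either gate. Of 13 fibroblast and dermal papilla markers 3 did, of 15 immune and Langerhans markers 4, and of 9 melanocyte markers 1 (Mitf, see the Wnt targets). The mean of the immune list ranged from 6.35 to 6.90 over the CD34+ITGA6+ arrays and from 5.96 to 6.62 over the ITGA6+ arrays, and none of its genes was called. Vim read 7.95, 8.02 and 8.67 against 6.37, 6.58 and 8.06 (adjusted p = 0.0612). Col1a2, a fibrillar collagen gene of fibroblasts, was called higher at 7.70, 7.66 and 7.47 against 7.17, 6.90 and 6.89 (0.62, adjusted p = 0.0293), a call lost with 4 of the 6 arrays left out (highest adjusted p = 0.103, without ITGA6+ replicate 3), while Pdgfra, Lum and Dcn stayed below the array medians in all 6 arrays. The part of such cells in the results was not tested.

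Across all genes, 737 of 5712 tested were called (12.9%): 264 were higher in CD34+ITGA6+ cells (4.62%) and 473 lower (8.28%). At an unadjusted p below 0.05 there were 1507 (26.4%). The higher genes differed more: their median difference was 1.34, against -1.05 for the lower genes, and 23 of the 26 calls of 3 or more on the log2 scale were higher in CD34+ITGA6+ cells. At 2-fold or more, 189 genes were higher (3.31%) and 256 lower (4.48%). In 731 of the 737 the values of the 2 groups did not overlap, as in 1822 of all tested genes (31.9%). The median difference of all tested genes was -0.15, and 65.7% of them lay below 0, so small negative differences are shared by most of the array. Centring the arrays on their medians moved that median to -0.07 and the calls to 333 higher and 445 lower, and quantile normalization gave 351 and 454. CD34+ITGA6+ replicate 2 was the lowest array of its group in 296 of the 473 lower genes, and without it 223 genes were higher and 255 lower. In all, 391 genes (171 higher and 220 lower) were called in each of the 6 fits that left out 1 K14ΔNLef1 array. In 65.9% of the higher genes and 50.1% of the lower genes the lower group lay near background.

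The genes most raised in CD34+ITGA6+ cells after Cd34 were Mme, Cd200, Cck and Tgm5. Mme, the membrane metallo-endopeptidase neprilysin (CD10) that cleaves small peptides, read 9.62, 8.004 and 8.49 against 3.77, 3.69 and 4.31. Cck, the precursor of the peptide hormone cholecystokinin, read 9.81, 7.95 and 8.27 against 4.06, 4.84 and 4.06. For both genes replicate 1 was the highest CD34+ITGA6+ array and replicate 2 the lowest, yet every one stood more than 3 log2 units above the ITGA6+ arrays (differences 4.78 ± 0.42 and 4.36 ± 0.42 (SE)). Tgm5, a transglutaminase that crosslinks cornified envelope proteins, was at 10.80, 11.23 and 10.57 against 6.47, 6.99 and 6.13 (4.34 ± 0.27 (SE), adjusted p = 2.07e-07).

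Extracellular regulators followed. Grem1, a secreted BMP antagonist, read 10.46, 9.76 and 10.43 in CD34+ITGA6+ cells, but its ITGA6+ values spread from 3.71 to 7.79 and the array carries 1 probe set for it, so its difference of 4.31 has the largest SE among the 15 highest genes (0.90). Egfl6, a matrix protein of the bulge that anchors follicle nerve endings and the arrector muscle, read 11.03, 10.86 and 11.22 against 7.48, 6.85 and 6.34. Has2, a hyaluronan synthase, read 9.22, 9.93 and 8.28 against 4.94, 5.14 and 5.69, a difference of 3.88 ± 0.43 (SE). Its paralogue Has3 went the other way, with 6.52, 6.69 and 6.68 against 9.45, 9.53 and 9.42 (-2.84 ± 0.22 (SE), adjusted p = 9.87e-07). The hyaluronan synthase genes thus differed between the gates in opposite directions. Their lack of overlap was a condition for being named among the highest or lowest genes. Of all tested genes, 31.9% did not overlap between the gates.

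Retinoid and lipid handling genes were among the highest too. Aldh1a2, which makes retinoic acid from retinal, read 9.19, 8.92 and 9.09 against 5.02, 4.94 and 4.62 (4.21 ± 0.25 (SE), adjusted p = 1.72e-07). Crabp1, a cytosolic retinoic acid binding protein, read 10.81, 9.57 and 9.95 against 6.09, 6.60 and 6.58. Apod, a secreted lipocalin that carries small lipids, read 10.06, 9.03 and 10.65 against 5.77, 5.51 and 5.92. The 15 highest genes closed with Peg3, an imprinted zinc finger gene (3.73), the guidance factor Sema3e (3.66) and Cdh11, a cadherin typical of mesenchyme (3.64). For each of these the ITGA6+ mean lay below the array medians.

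The genes most reduced in CD34+ITGA6+ cells, and so highest in the other basal cells, were led by Tagln3, a calponin-family protein that binds actin and is known from neurons. It read 6.06, 6.42 and 6.73 in CD34+ITGA6+ cells and 10.48, 10.41 and 9.52 in ITGA6+ cells, a difference of -3.74 ± 0.28 (SE) with adjusted p = 9.09e-07. Cfap57, a cilium-associated gene read by 2 probe sets, differed by -3.21 ± 0.47 (SE). Defb1, an epithelial β-defensin of the upper follicle and epidermis, read 5.995, 5.44 and 6.47 against 8.84, 8.61 and 9.45. Tgm3, the transglutaminase of differentiating epidermis and hair, read 5.80, 5.48 and 5.38 against 8.18, 9.001 and 7.76. Tgm3 and Tgm5, 2 enzymes of 1 family, thus marked opposite gates, at differences of -2.76 and 4.34.

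Growth factor and matrix genes of the ITGA6+ cells were the ligand Bmp4 (6.48, 5.23 and 6.14 against 8.54, 8.94 and 8.56), the IGF carrier Igfbp2 (7.25, 6.78 and 6.68 against 9.54, 10.05 and 9.24) and the matrix-associated Abi3bp, whose 37 probe sets all had the same sign (-2.92 ± 0.27 (SE)). Robo1, a receptor for Slit guidance cues, read 6.95, 6.49 and 7.02 against 9.35, 9.65 and 9.64. Rab27a, a small GTPase of melanosome and granule transport, read 6.94, 6.23 and 6.56 against 9.20, 9.48 and 9.45. The remaining genes of the 15 lowest were Gdpd2, Plbd1 and Fmo1, enzymes of phospholipid and xenobiotic metabolism, Cysltr1, a leukotriene receptor, Gins1, a subunit of the replicative helicase, and Has3, with differences from -2.89 to -2.71. A lack of overlap between the gates was a condition for entering the 15 lowest. Of all tested genes, 22.8% lay lower in CD34+ITGA6+ cells without overlap.

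The sequence just upstream of these genes was searched for the core that Lef/Tcf proteins bind, CTTTGAT or CTTTGAA on either strand, in RefSeq windows of 250 bases before to 50 bases after the start (build GRCm38.p6). The core stood in 8.65% of all promoters, in 6.0% of those of tested genes, in 6.01% of those of genes called higher and in 6.31% of those of genes called lower. Of the 42 genes named for the size of their difference or of its dependence on genotype, 29 had a promoter in the table and 1, Sema3e, held a core. The windows of Sema3e (chr5:14025026-14025325, + strand), of the sort marker Cd34 (chr1:194938571-194938870, + strand) and of the retinoid gene Aldh1a2 (chr9:71215539-71215838, + strand) are shown because the first holds the only core found among these genes, while the other windows, of the sort marker and of a gene raised in K14ΔNLef1 mice alone, hold none. Capitals mark the core.
Sema3e: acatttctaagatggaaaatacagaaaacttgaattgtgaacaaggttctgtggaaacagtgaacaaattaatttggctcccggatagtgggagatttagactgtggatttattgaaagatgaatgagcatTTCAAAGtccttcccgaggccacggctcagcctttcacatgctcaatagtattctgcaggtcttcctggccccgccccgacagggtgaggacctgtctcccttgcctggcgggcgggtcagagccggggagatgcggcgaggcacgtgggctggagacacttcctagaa
Cd34: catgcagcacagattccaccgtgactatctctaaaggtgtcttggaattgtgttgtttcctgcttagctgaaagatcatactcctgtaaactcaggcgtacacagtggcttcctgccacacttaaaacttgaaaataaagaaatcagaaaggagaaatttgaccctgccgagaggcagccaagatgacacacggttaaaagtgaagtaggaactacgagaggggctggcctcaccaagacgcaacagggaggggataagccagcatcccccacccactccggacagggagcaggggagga
Aldh1a2: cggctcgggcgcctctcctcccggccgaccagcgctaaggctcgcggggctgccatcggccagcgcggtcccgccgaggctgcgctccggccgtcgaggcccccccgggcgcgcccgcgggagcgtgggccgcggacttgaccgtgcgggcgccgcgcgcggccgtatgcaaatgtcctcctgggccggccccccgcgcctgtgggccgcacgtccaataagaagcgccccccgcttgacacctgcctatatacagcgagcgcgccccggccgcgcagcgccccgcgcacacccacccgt
The capitals in Sema3e read TTCAAAG, which is CTTTGAA on the other strand, starting at position -119 from the gene's start. A match of these letters is a description of the window and says nothing of binding.

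The lists of bulge genes were chosen with earlier results of these data known. Of 6 tested genes for bulge surface proteins 4 were higher (Cd34, Cd200, Lgr5 and Itgb6) and none lower, with a median of 2.76 against -0.15 over all genes. That median depends on the signal filter: over all 8 measured members it was 0.59, with the same count of 4 higher. In K14ΔNLef1 mice Cd34, Cd200 and Lgr5 exceeded the array medians only in CD34+ITGA6+ cells. Cd34 was sorted on, and Cd200 and Lgr5 are the gate markers given above, so their calls, and their part in this list's share and median, add nothing new. The called share of tested members was 66.7% for bulge surface proteins, 57.1% for bulge transcription factors and 73.1% for bulge secreted and matrix proteins, against 12.9% of all tested genes. The call of Itgb6, a partner of αv integrin, was lost with 4 of the 6 arrays left out in turn (highest adjusted p = 0.107, without CD34+ITGA6+ replicate 3). Of 14 transcription factors known from the bulge 8 were higher and none lower, with a median of 0.97. Lhx2, a LIM homeobox factor that maintains bulge stem cells, read 11.09, 10.58 and 10.62 against 7.51, 7.61 and 7.70. Nfatc1, a calcium-regulated factor that keeps bulge cells quiescent, read 9.25, 9.50 and 9.04 against 6.76, 6.33 and 6.90. Tbx1, Id2 and Runx1 differed by 1.69, 1.40 and 1.37, and Sox9, which also works in the outer root sheath, by 1.08 ± 0.26 (SE) from 8.84 to 9.92 (adjusted p = 0.012). For these 8 genes the direction held under centring and quantile normalization, which called 10 of the 14.

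Secreted and matrix proteins known from the bulge gave 17 higher, 2 lower (Bmp4 and Gas6) and 7 not called of 26 tested, with a median of 1.43. Pcolce2, among the higher genes, lay below the array medians in both gates. Ccn2, a matricellular protein and target of TGF-β and YAP, read 10.94, 10.90 and 10.68 against 7.69, 8.37 and 8.13, which is a 6.85-fold difference. Aspn, a small leucine-rich proteoglycan that binds TGF-β, read 10.58, 9.66 and 10.17 against 6.61, 6.65 and 7.22. Fgf18, a growth factor that prolongs telogen, read 9.03, 8.94 and 7.83 against 6.04, 6.28 and 6.01. None of these overlapped between gates, nor did 31.9% of all tested genes. Of 3 tested keratins of bulge and outer root sheath only Krt6a was called (8.82, 7.53 and 8.83 against 6.74, 6.04 and 6.72, a difference of 1.89 ± 0.32 (SE)), while Krt15 and Krt17 were at 0.17 and -0.24. The called share was 33.3%, against 12.9% of all tested genes.

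**Figure D2:**
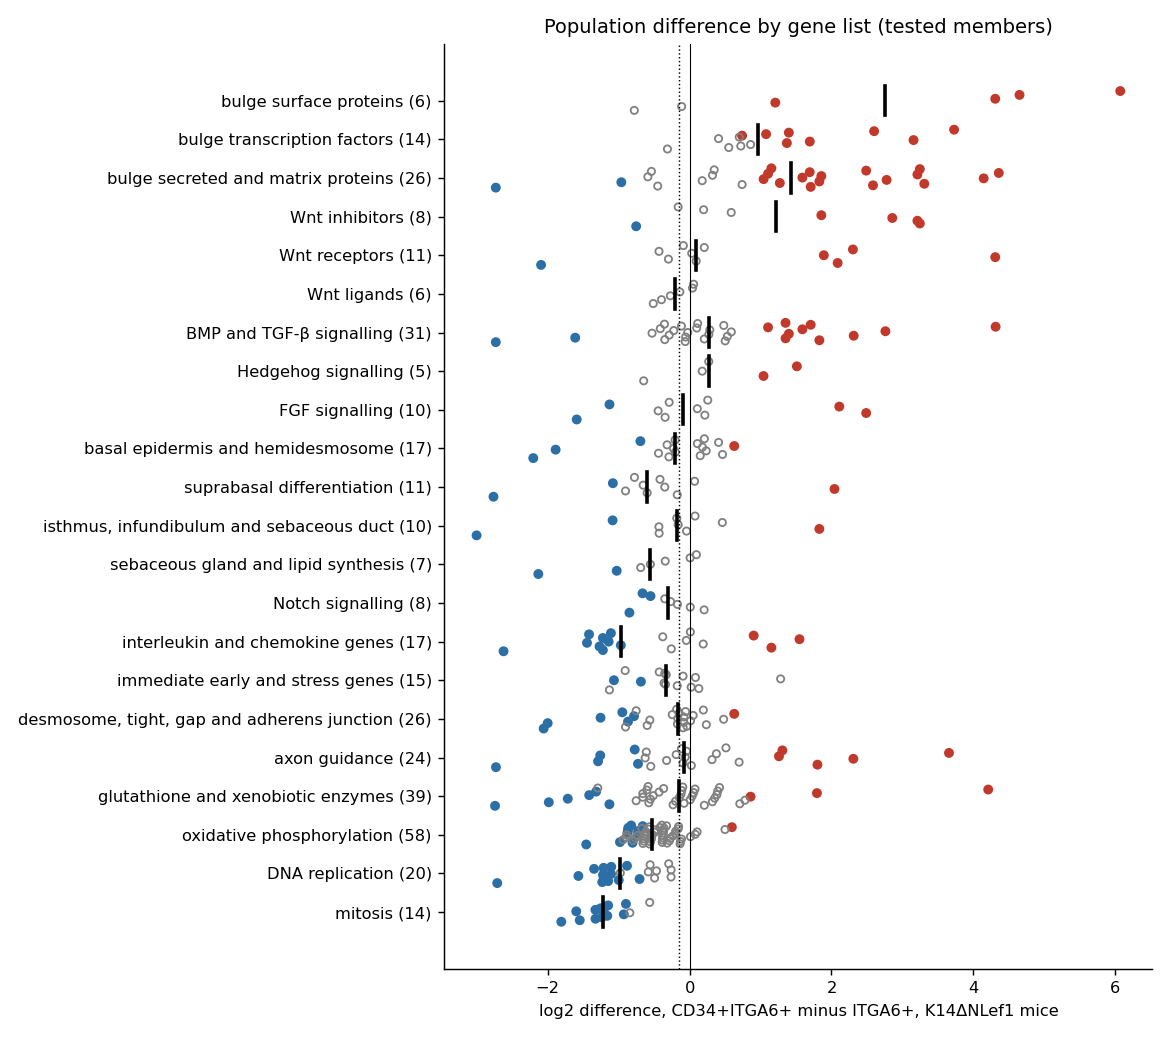
Log2 difference between the gates in K14ΔNLef1 mice (x axis) for each tested gene of the lists described here (rows, number tested in brackets), red where called higher in CD34+ITGA6+ cells, blue where called lower and open where not called. Black bars are list medians and the dotted line is the median of all tested genes, -0.15. The medians of the bulge lists lie to the right, although each of these lists has members left of 0. All members of the mitosis and DNA replication lists lie left of 0.

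Wnt pathway genes were taken by role. None of 6 tested ligands was called, against 12.9% of all tested genes, with differences from -0.51 for Wnt4 to 0.06 for Wnt11. Among 11 receptors 4 were higher, the gate marker Lgr5 and the Frizzled genes Fzd3 (2.30), Fzd2 (2.09) and Fzd7 (1.89), and 1 was lower, Fzd10 (6.33, 6.97 and 6.06 against 8.58, 8.47 and 8.60). The called share was 45.5%, against 12.9% of all tested genes. The receptor median was 0.09, against -0.15 over all tested genes. Fzd7 read 10.05, 9.74 and 9.63 against 7.87, 8.16 and 7.71, a 3.71-fold difference. The secreted inhibitors that were called were all on the CD34+ITGA6+ side. Wif1, which binds Wnt ligands, read 9.99, 9.29 and 9.54 against 6.57, 6.32 and 6.18. Sfrp1, a soluble Frizzled-like protein, read 10.37, 9.66 and 10.05 against 6.86, 7.11 and 6.48. Sfrp4 and Dkk3 were higher by 2.86 and 1.86, so that 4 of 8 tested inhibitors were higher, with a median of 1.22. The called share was 62.5%, against 12.9% of all tested genes. The signal filter shaped these values. Without it 5 of 16 inhibitors were higher and 1 lower, with a median of 0.23. Dkk1, Dkk2, Sfrp2, Sfrp5 and Frzb lay below the array medians in both gates and were not tested. The co-repressor Tle3 was the 1 lower member (-0.75 ± 0.21 (SE), adjusted p = 0.0313), a call that 4 of the 6 left-out arrays ended (highest adjusted p = 0.134, without ITGA6+ replicate 2).

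Of 13 targets and nuclear factors of the pathway 2 were higher (Lgr5 and Mitf), 1 was lower and 10 were not called, a called share of 23.1% against 12.9% of all tested genes. Axin2, a feedback target read out as a Wnt reporter, was at 8.61, 8.95 and 8.84 against 8.32, 8.30 and 8.55, close together and not called (0.41 ± 0.18 (SE), adjusted p = 0.171). Ctnnb1, which encodes β-catenin, read 10.15, 10.01 and 10.17 against 10.75, 10.95 and 10.59 (-0.65 ± 0.18 (SE), adjusted p = 0.0305), and lost its call with 5 of the 6 arrays left out (highest adjusted p = 0.118, without ITGA6+ replicate 2). Mitf, the melanocyte master regulator and a Wnt target there, read 10.27, 10.36 and 9.51 against 7.11, 7.56 and 7.36 (2.70 ± 0.23 (SE), adjusted p = 2.45e-06). Other melanocyte genes, Dct, Pmel, Sox10 and Kit among them, stayed below the array medians in all 6 arrays.

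In the BMP and TGF-β list 10 of 31 tested genes were higher and 2 lower, with a median of 0.27. This was a called share of 38.7%, against 12.9% of all tested genes. The antagonists were on the CD34+ITGA6+ side: Grem1 as above and Fst, which traps activins and BMPs, at 10.17, 10.20 and 10.41 against 8.36, 8.38 and 8.56 (3.55-fold, adjusted p = 6.72e-06). The ligand Bmp4 was on the other. Id4, an inhibitor of bHLH factors that BMP signals induce in many cells, read 9.66, 9.24 and 9.26 against 6.97, 7.13 and 7.12. The latent TGF-β binding proteins Ltbp1 and Ltbp2 were higher by 2.76 and 1.71, whereas the co-receptor Tgfbr3 was lower by -1.61 ± 0.23 (SE).

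Receptors of the FGF family differed in opposite directions. Fgfr1 read 9.78, 9.96 and 10.02 in CD34+ITGA6+ cells and 7.62, 7.85 and 7.96 in ITGA6+ cells (2.11 ± 0.18 (SE), 4.32-fold). Fgfr2 read 8.95, 8.86 and 8.92 against 9.99, 10.26 and 9.88 (-1.13 ± 0.16 (SE), 2.19-fold lower). Fgfbp1, which releases FGFs from matrix, was also lower (-1.59 ± 0.28 (SE)), and with Fgf18 this made 2 higher and 2 lower of 10 tested. The called share of this list was 40%, against 12.9% of all tested genes. The Hedgehog effectors Gli1 (7.86, 8.07 and 8.41 against 6.45, 6.39 and 6.96) and Gli3 (8.71, 8.45 and 8.27 against 7.44, 7.41 and 7.47) were both higher, and the receptor Ptch1 was not called (0.27 ± 0.31 (SE)). Of 6 EGF family genes 1 was called (16.7%, against 12.9% of all tested genes). It was the epidermal ligand Epgn, at 6.02, 6.40 and 5.91 against 8.38, 8.53 and 8.65. Notch genes gave 3 lower of 8 (Notch1 -0.85, Hes1 -0.66 and Jag2 -0.55), a called share of 37.5% against 12.9% of all tested genes. Leaving out CD34+ITGA6+ replicate 2 ended all 3 calls (adjusted p = 0.0503, 0.134 and 0.138). Hes1 was also lost without each of 4 other arrays and Jag2 without each of the other 5.

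Genes of mitosis and DNA replication were lower in CD34+ITGA6+ cells. Of 14 tested mitosis genes 12 were lower and none higher, against 8.28% of all genes, with a median of -1.21. Ccna2, the cyclin of S phase and mitosis, read 8.15, 7.77 and 8.25 against 9.71, 9.78 and 9.46, a 3.02-fold difference. Cdk1, its mitotic kinase, read 7.83, 7.28 and 7.83 against 9.01, 8.85 and 8.80. Tpx2, a spindle assembly factor, read 6.58, 6.66 and 7.31 against 8.80, 8.49 and 8.68. The ubiquitin ligase genes Ube2c, with 1 probe set, and Cdc20 differed by -1.55 and -0.93. All 14 differences were below 0, from -1.81 to -0.56, also after centring or quantile normalization moved their median to -1.14 and -1.12.

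DNA replication genes followed the same order, with 12 of 20 lower, none higher and a median of -0.99. The called share was 60%, against 12.9% of all tested genes. The replicative helicase subunit Mcm3 read 7.22, 6.75 and 7.49 against 8.95, 8.33 and 8.89. Prim1, the primase, read 8.62, 8.45 and 8.50 against 9.69, 10.09 and 9.46 (2.33-fold lower). Rrm1, which makes deoxynucleotides, differed by -1.15 ± 0.22 (SE). Without CD34+ITGA6+ replicate 2, the array that ran low, 9 of the 14 mitosis genes and 9 of the 20 replication genes were still called lower and their medians were -1.06 and -0.83. Of 17 cyclins, inhibitors and quiescence genes 3 were lower and none higher, a called share of 17.6% against 12.9% of all tested genes. Their median of -0.13 was close to the -0.15 of all tested genes. Ccnd2, a cyclin of growth factor response, read 10.77, 9.62 and 10.43 against 11.82, 11.88 and 11.77 (2.92-fold lower), Foxo1 differed by -0.96, and Cdkn1a, the inhibitor p21, by -1.02 with a call lost with 5 of the 6 arrays left out (highest adjusted p = 0.12, without ITGA6+ replicate 1).

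**Figure D3:**
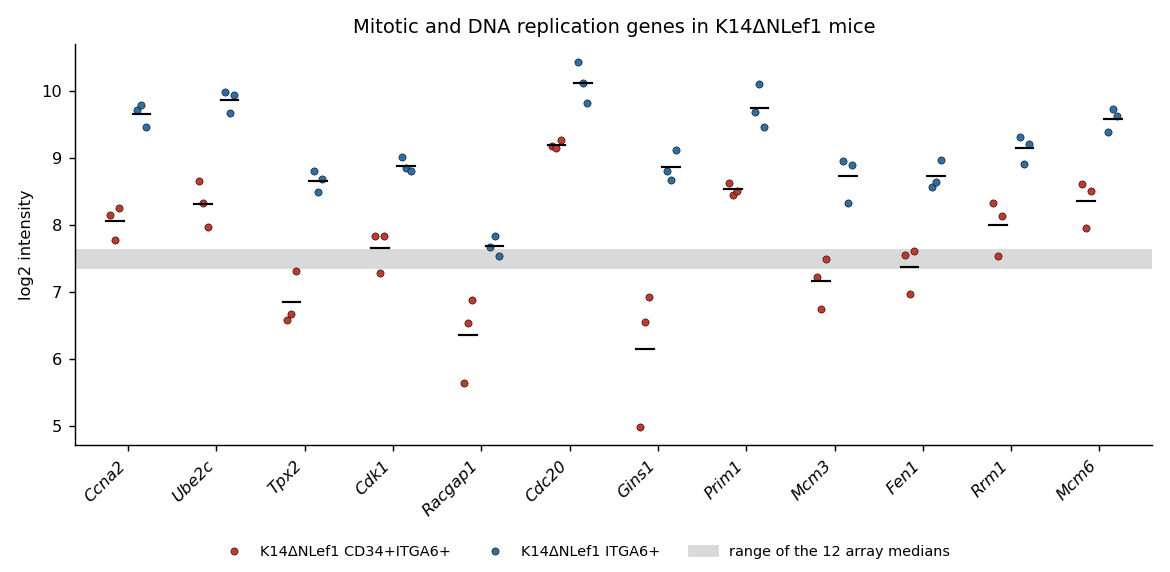
Log2 intensity (y axis) of 6 mitosis genes (left) and 6 DNA replication genes (right) in each K14ΔNLef1 array, CD34+ITGA6+ in red and ITGA6+ in blue, with a bar at the mean of 3 arrays and the range of the 12 array medians in grey. The genes shown are those with the lowest limma p in each list. In every one the 3 CD34+ITGA6+ values lie below the 3 ITGA6+ values, as they do in 22.8% of all tested genes.

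In lists of the basal and differentiating epidermis the called share was 23.5% (basal and hemidesmosome), 27.3% (suprabasal) and 30.0% (isthmus, infundibulum and sebaceous duct), against 12.9% of all tested genes. Of 17 basal and hemidesmosome genes 1 was higher and 3 lower (Itga6, Ly6a and Ly6d), with a median of -0.20. Leaving out CD34+ITGA6+ replicate 2, ITGA6+ replicate 1 or ITGA6+ replicate 3 left 1 lower. Ly6d, a GPI-anchored surface protein of the epidermis, read 9.11, 7.96 and 8.50 against 10.50, 10.74 and 9.999 (3.70-fold lower). Ly6a (Sca1), which marks interfollicular epidermis and infundibulum, read 6.39, 4.62 and 6.15 against 7.71, 7.70 and 8.36 (-2.20 ± 0.58 (SE), adjusted p = 0.0224), a call lost without CD34+ITGA6+ replicate 2 (0.112), ITGA6+ replicate 1 (0.0502) or ITGA6+ replicate 3 (0.086). Dsg3, a basal desmosomal cadherin, was the 1 higher member (0.63 ± 0.19 (SE)), and its call was lost with each of the 6 arrays left out (highest adjusted p = 0.15, without ITGA6+ replicate 3). Among 11 suprabasal genes Calml3, a calmodulin-like epithelial protein, was higher (11.42, 11.14 and 11.17 against 9.58, 8.88 and 9.15, 4.12-fold), Tgm3 and the differentiation factor Grhl3 (-1.08) were lower, and the suprabasal keratins Krt1 and Krt10 were not called (-0.60 and -0.42). Of 10 genes of isthmus, infundibulum and sebaceous duct Fst was higher and Defb1 and Klk10 (-1.09) lower. Plet1 and Lrig1, which mark the isthmus and junctional zone, overlapped between the gates or nearly did, with differences of -0.43 and -0.18 that were not called.

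Lipid synthesis genes of the sebaceous gland gave 2 lower of 7, a called share of 28.6% against 12.9% of all tested genes. Scd1, the stearoyl-CoA desaturase of sebocytes, read 8.88, 7.59 and 7.99 against 10.43, 10.42 and 10.02 (4.38-fold lower), and Acaca, the first enzyme of fatty acid synthesis, read 6.92, 7.27 and 6.92 against 8.06, 8.21 and 7.92. Fasn and Srebf1, which act in the same synthesis, were not called (-0.34 and 0.10).

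Immune signalling genes leaned to the ITGA6+ cells. Of 17 tested interleukin and chemokine genes 9 were lower and 3 higher, with a median of -0.97. The called share was 70.6%, against 12.9% of all tested genes. Without the signal filter 8 of 24 were lower and 3 higher, with a median of -0.23. Il1r2, among the lower genes, had both K14ΔNLef1 means below the array medians. Tnfrsf19 (Troy), a TNF receptor family member that is also a Wnt target, read 7.57, 7.30 and 6.80 against 9.71, 10.23 and 9.59 (-2.62 ± 0.28 (SE), adjusted p = 2.52e-05). The interleukin 1 receptor antagonist Il1rn read 7.90, 6.99 and 7.53 against 9.28, 8.59 and 8.87. Il6st (gp130), the shared receptor subunit of the interleukin 6 family, read 9.33, 8.99 and 9.09 against 10.06, 10.31 and 9.96 (1.96-fold lower). On the other side, the chemokine Cxcl12 was higher by 1.55 ± 0.24 (SE) and Cxcl14, an epithelial chemokine, read 10.59, 10.44 and 10.58 against 9.34, 9.66 and 9.15 (2.22-fold). The cytokine Il34, which sustains Langerhans cells, was higher by 0.90, a call lost with 5 of the 6 arrays left out (highest adjusted p = 0.129, without ITGA6+ replicate 3).

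Contact and guidance genes separated by member. In the junction list 6 of 26 were lower and 1 higher (Dsg3), a called share of 26.9% against 12.9% of all tested genes. Without ITGA6+ replicate 3 the count was 3 lower, without CD34+ITGA6+ replicate 2 it was 4, and none was higher with any of the 6 arrays left out. The lower calls lost with at least 1 array left out were those of Cldn1, Dsg2, Pard3 and Pkp1 (highest adjusted p = 0.102, 0.0753, 0.0504 and 0.0558). Gja1, the main epidermal connexin, read 7.87, 7.18 and 7.44 against 9.26, 9.30 and 9.91. Pkp4, an armadillo protein of cell junctions, read 7.64, 7.41 and 7.87 against 9.88, 9.58 and 9.63 (-2.06 ± 0.19 (SE), adjusted p = 6.29e-06). The axon guidance list had 5 higher and 5 lower of 24 tested (55 measured), a called share of 41.7% against 12.9% of all tested genes. Its median of -0.08 turned to 0.001 under centring and 0.018 under quantile normalization. Its higher members were Sema3e, the neurotrophin receptor gene Ntrk2, Bdnf (the ligand of that receptor, 1.80), Efnb2 (11.42, 11.32 and 11.20 against 9.65, 10.33 and 10.03, 2.48-fold) and Plxna2 (1.26). The lower members were Robo1, Sema3f (-1.29), Plxna4 (-1.26), Plxna1 and Sema4b. The calls of Plxna1 and Sema4b were lost with 3 and 5 of the 6 arrays left out (highest adjusted p = 0.0786, without ITGA6+ replicate 2, and 0.156, without CD34+ITGA6+ replicate 2). Among 24 collagens 3 were higher and 2 lower, a called share of 20.8% against 12.9% of all tested genes. The lower count was 1 with any array but CD34+ITGA6+ replicate 3 left out. Col12a1, a fibril-associated collagen, was the most raised (9.12, 8.67 and 9.57 against 7.40, 7.22 and 7.29). None of 6 tested laminin and basement membrane genes was called, against 12.9% of all tested genes.

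Of 39 glutathione and xenobiotic enzymes 3 were higher and 6 lower, a called share of 23.1% against 12.9% of all tested genes. Besides Aldh1a2 and Fmo1, Cyp1b1, which oxidizes oestrogens and retinoids, was higher (7.84, 7.76 and 8.04 against 6.23, 5.81 and 6.22) and Gsta3, a glutathione transferase, was lower (6.43, 6.31 and 7.21 against 8.27, 9.13 and 8.49). Of 84 solute carriers 6 were higher and 10 lower, a called share of 19.0% against 12.9% of all tested genes. Leaving out any 1 of the 6 arrays left 2 or 3 higher, and the lower count was 4 without CD34+ITGA6+ replicate 2 and 6 without ITGA6+ replicate 1 or 3. The urea transporter Slc14a1 was far the highest, at 10.02, 9.45 and 9.32 against 5.91, 6.10 and 6.03 (3.58 ± 0.20 (SE), adjusted p = 1.17e-07), and the 1-probe-set gene Slc26a10 the lowest (-2.06). Oxidative phosphorylation genes had a median of -0.53, against -0.15 over all tested genes. Of 58, 10 were lower and 1 higher, a called share of 19.0% against 12.9% of all tested genes. The call of the higher gene, Cox18, was lost with each of the 6 arrays left out (highest adjusted p = 0.18, without ITGA6+ replicate 2). The lower count depended on single arrays. None of the 58 was called lower without CD34+ITGA6+ replicate 2, 4 without replicate 3 and 16 without replicate 1 of that gate. The count was 3, 2 and 1 without ITGA6+ replicates 1, 2 and 3.

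The population difference of WT mice, fitted alongside, called 982 genes (17.2%), 327 higher (5.72%) and 655 lower (11.5%). Of the 737 calls in K14ΔNLef1 mice 483 (65.5%) were also called in WT mice, which is 49.2% of the WT calls, and 478 of them had the same sign. The difference between genotypes itself was tested as an interaction and called 88 genes (1.54%), 42 with a more positive difference in K14ΔNLef1 mice (0.735%) and 46 with a more negative one (0.805%). Of the 88, 50 were among the 737. No gene of the bulge surface, bulge transcription factor, mitosis or DNA replication lists had its interaction called. In the list of bulge secreted and matrix proteins 5 of 26 had. A missed threshold does not show equal differences. The values stood at 6.07 and 6.43 for Cd34, 3.16 and 3.50 for Lhx2 and -1.60 and -1.41 for Ccna2 in K14ΔNLef1 and WT mice.

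**Figure D4:**
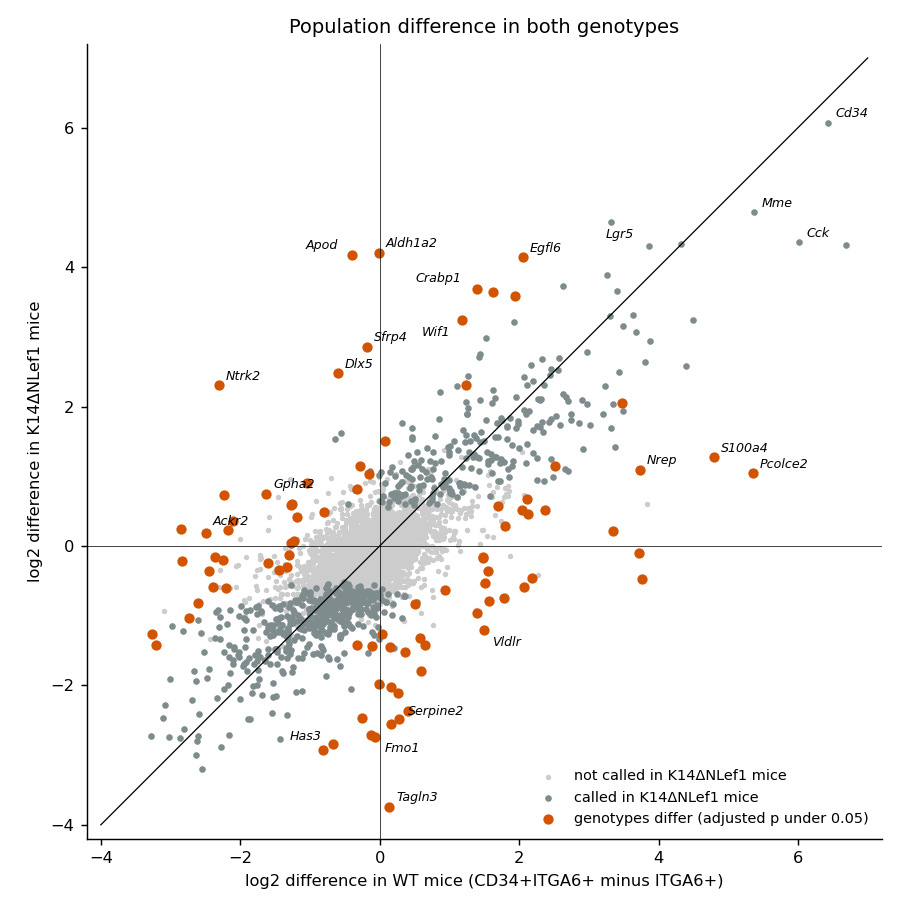
Log2 difference between the gates in WT mice (x axis) and in K14ΔNLef1 mice (y axis) for each tested gene, with the line of equal values. Genes whose difference depended on genotype by the interaction test are orange (88), other genes called in K14ΔNLef1 mice dark grey and the rest light grey. Ntrk2, at -2.31 and 2.31, lies farthest above the line among labelled genes and Pcolce2, at 5.35 and 1.04, farthest below.

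Several of the genes highest in the CD34+ITGA6+ cells of K14ΔNLef1 mice had no such difference in WT mice. Aldh1a2 was at 5.09 and 5.10 in the WT gates, against 9.07 and 4.86 here, an interaction of 4.22 ± 0.36 (SE) with adjusted p = 1.85e-05. Apod was at 5.62 and 6.02 in WT (interaction 4.57 ± 0.44 (SE)), and Sfrp4 at 5.37 and 5.55 (interaction 3.04 ± 0.37 (SE)). In these 3 genes only the CD34+ITGA6+ mean of K14ΔNLef1 mice was above the array medians. Dlx5, a homeobox gene of the hair matrix, read 9.18, 7.02 and 8.35 in that group against 5.82, 6.01 and 5.29 in ITGA6+ cells, with WT means of 6.71 and 7.31 (interaction 3.08 ± 0.59 (SE), adjusted p = 0.0148). For Wif1, Egfl6, Crabp1, Cdh11 and Slc14a1 the difference was called in both genotypes and was larger in K14ΔNLef1 mice, by 2.07, 2.09, 2.29, 2.01 and 1.64. The interaction call of Egfl6 was lost with 8 of the 12 arrays left out in turn (highest adjusted p = 0.0792), and that of Crabp1 where probe sets were averaged (adjusted p = 0.0557).

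A second group was high in the ITGA6+ cells of K14ΔNLef1 mice and near background in the other 3 groups. Tagln3 had means of 10.14 there, 6.40 in CD34+ITGA6+ cells and 5.87 and 5.74 in the WT gates (interaction -3.87 ± 0.39 (SE), adjusted p = 8.94e-05). Igfbp2 (9.61, with 6.90, 5.94 and 6.06 in the same order), Pla2g4c, a cytosolic phospholipase (9.07, 6.51, 5.51 and 5.34), and the protease inhibitor Serpine2 (7.86, 5.38, 5.14 and 4.85) were likewise highest in the ITGA6+ cells of K14ΔNLef1 mice. Fmo1, a flavin-containing monooxygenase, had 10.41 there, 7.66 in CD34+ITGA6+ cells and 6.57 and 6.64 in WT. The interaction of Serpine2 was lost with 4 of the 12 arrays left out (highest adjusted p = 0.06). Has3, Abi3bp, Nme5, Gsta3 and Plxna4 also had a more negative difference in K14ΔNLef1 mice, by 1.29 to 2.77 on the log2 scale, with Gsta3 lost with 7 of 12 arrays left out (highest adjusted p = 0.059).

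**Figure D5:**
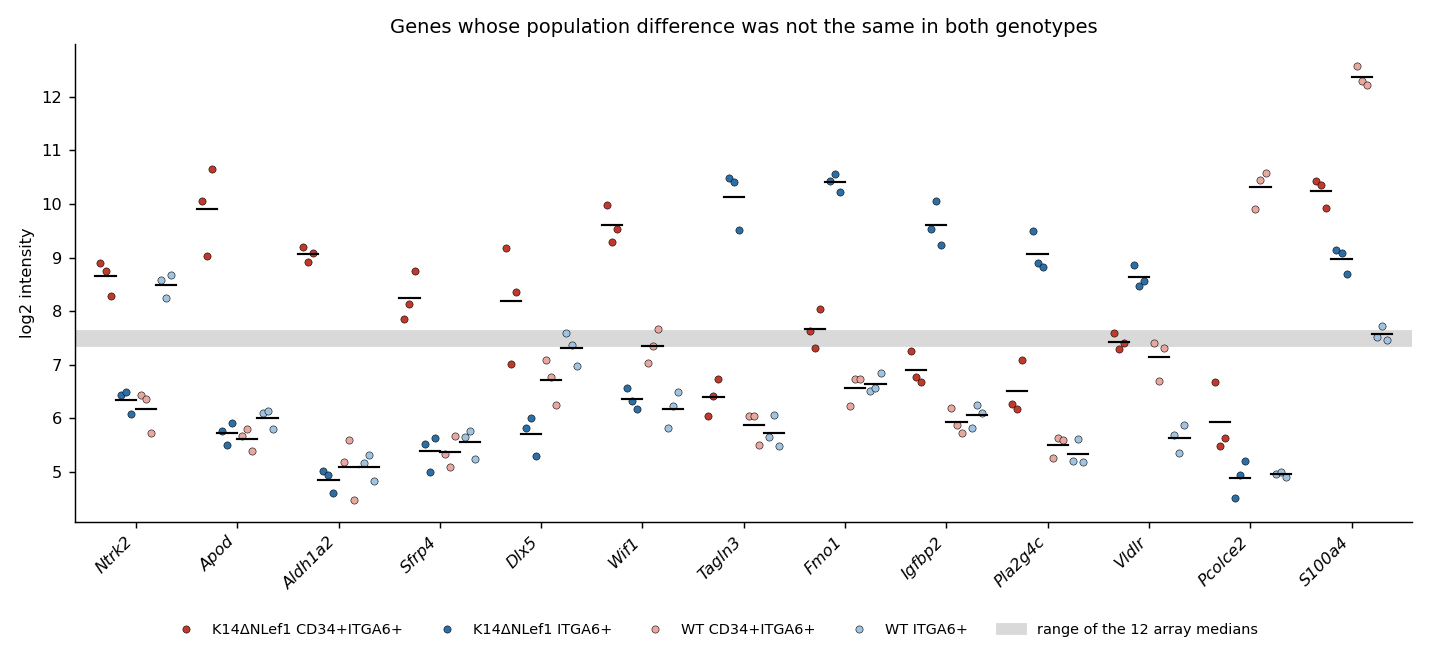
Log2 intensity (y axis) of 13 genes whose population difference depended on genotype, in every array of the 4 groups: K14ΔNLef1 CD34+ITGA6+ dark red, K14ΔNLef1 ITGA6+ dark blue, WT CD34+ITGA6+ light red and WT ITGA6+ light blue, with bars at means of 3 arrays and the range of the 12 array medians in grey. Apod, Aldh1a2 and Sfrp4 are above the grey band in the first group alone, Tagln3, Igfbp2 and Pla2g4c in the second group alone, and Pcolce2 in the WT CD34+ITGA6+ group alone.

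In 5 genes the gates differed in both genotypes with opposite signs. Ntrk2, the receptor TrkB, read 8.90, 8.75 and 8.29 in K14ΔNLef1 CD34+ITGA6+ cells and 6.44, 6.49 and 6.08 in ITGA6+ cells, while the WT means were 6.18 and 8.49. Its gate difference was 2.31 in K14ΔNLef1 mice and -2.31 in WT mice (interaction 4.62 ± 0.33 (SE), adjusted p = 4.61e-06). Vldlr, a lipoprotein receptor that also serves reelin, differed by -1.20 and 1.50, Tpst1, a tyrosine sulfotransferase, by -0.75 and 1.79, the glycoprotein hormone subunit Gpha2 by 0.75 and -1.63, and Il34 by 0.90 and -1.04. Their interactions were called with every array left out in turn. The K14ΔNLef1 calls of Gpha2 and Tpst1 were each lost with 5 of the 6 arrays left out (highest adjusted p = 0.196, without CD34+ITGA6+ replicate 3, and 0.167, without CD34+ITGA6+ replicate 2).

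Genes with a smaller difference in K14ΔNLef1 mice than in WT mice included some of the largest WT differences. Pcolce2, an enhancer of procollagen C-proteinase, read 6.68, 5.48 and 5.64 in CD34+ITGA6+ cells against 4.52, 4.95 and 5.20 in ITGA6+ cells, all below the array medians, while the WT means were 10.31 and 4.96. S100a4, a calcium-binding protein known from bulge cells, read 10.43, 10.36 and 9.93 against 9.13, 9.08 and 8.69, a 2.41-fold difference, with WT means of 12.36 and 7.57. Nrep was at 9.81 against 8.72, with 11.80 and 8.07 in WT. Their interactions were -4.31 ± 0.41, -3.52 ± 0.28 and -2.64 ± 0.44 (SE). In K14ΔNLef1 mice alone the calls of Pcolce2 and Nrep were lost with 3 and 4 of the 6 arrays left out (highest adjusted p = 0.13, without ITGA6+ replicate 1, and 0.122, without CD34+ITGA6+ replicate 2). The interleukin 1 decoy receptor Il1r2, finally, was lower by -1.42 in K14ΔNLef1 mice, from 6.63 to 5.22, and by -3.21 in WT mice, from 10.69 to 7.48. Both K14ΔNLef1 means lay below the array medians and cannot be told from background. The interaction of Il1r2 was lost with 7 of the 12 arrays left out (highest adjusted p = 0.0812).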

How the data were processed

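Sorted keratinocytes were profiled on Affymetrix Mouse Exon 1.0 ST arrays, 1 array per sample, after amplification of the RNA. The authors summarised the probe sets by RMA with Affymetrix Power Tools (build mm9, from the submitters' processing notes) and deposited intensity values. The deposited intensity column runs from 2.47 to 17286 and is linear, so log2 was taken here. Of 114330 probe sets 109796 (96.03%) have 1 gene symbol, 836 several and 3698 none. Of 11297 symbols 10030 were current, 1240 were updated through RefSeq and 27 kept, giving 11287 genes with a median of 8 probe sets, and 728 genes with 1. The sources used here do not say how the deposited probe sets were selected.

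A gene was tested if it exceeded the array's median of all probe sets in at least 3 of the 12 arrays. All 12 arrays entered 1 limma fit (R 4.3.3, limma 3.58.1, Python 3.11.15) of 4 group means with 8 residual degrees of freedom before moderation, with contrasts for each genotype and for their difference (the interaction). The script was tested on simulated data. Genes named are Lef1 and the sort and bulge markers, the 15 highest and 15 lowest called genes without overlap, up to 10 interaction genes per direction, up to 6 members per list by adjusted p, and members behind counts of 5 or fewer. Members and lists were chosen with earlier results of these data known. Alternatives were the mean over probe sets, no filter, a filter at percentile 75, median centring, quantile normalization, the 6 arrays alone, a replicate block and each array left out. Arrays carry no read depth, so their number limits the precision.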

Additional observations from a re-analysis of the deposited data

Results flagged for a closer look

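The gate difference was not the same in K14ΔNLef1 and WT mice, by the interaction test, in 36 of the genes considered. The values below are K14ΔNLef1 minus WT differences on the log2 scale. It was more positive in K14ΔNLef1 mice in 18. The receptor gene Ntrk2 differed by 4.62, Apod by 4.57, Aldh1a2 by 4.22, Dlx5 by 3.08 and Sfrp4 by 3.04. Smaller interactions were those of Gpha2 (2.38), Crabp1 (2.29), Egfl6 (2.09), Wif1 (2.07), Cdh11 (2.01), Il34 (1.95), Il1r2 (1.79), Slc14a1 (1.64) and Id4 (1.07). In 4 of the 18 the K14ΔNLef1 gates did not differ by the test: Serpinb2 (3.08), a plasminogen activator inhibitor, Axin2 (1.60), Wnt16 (1.31) and Gata3 (1.11). For these the WT differences were -2.85, -1.19, -1.27 and -1.45.

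The difference was more negative in K14ΔNLef1 mice in the other 18. Pcolce2 (-4.31), Tagln3 (-3.87) and S100a4 (-3.52) were farthest from 0. They were followed by Nme5 (-2.77), Serpine2 (-2.76), Pla2g4c (-2.73), Vldlr (-2.70), Fmo1 (-2.68), Nrep (-2.64), Igfbp2 (-2.58), Tpst1 (-2.54), Has3 (-2.17), Abi3bp (-2.12), Cyp2b10 (-2.07), Gsta3 (-1.97) and Plxna4 (-1.29). The glycolytic enzyme gene Hk2 (-1.92) and the aquaglyceroporin gene Aqp3 (-1.67) were not called in K14ΔNLef1 mice and were higher in CD34+ITGA6+ cells of WT mice, by 1.56 and 2.13. The interactions of Id4, Gata3 and Aqp3 were the least stable, lost with 11, 9 and 9 of the 12 arrays left out in turn (highest adjusted p = 0.113, 0.0767 and 0.123).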

How the results depend on the processing

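No named gene reversed. Of 164 named genes called in K14ΔNLef1 mice, 119 kept their call under every alternative run in which they were tested and 45 lost it at least once, most often without CD34+ITGA6+ replicate 2 (37 genes). The 737 calls became 449 of 2327 genes tested with the stricter filter, where all 397 main calls still tested were kept, and 478 (without CD34+ITGA6+ replicate 2) to 705 (without CD34+ITGA6+ replicate 1) with an array left out. They were 979 with the mean over probe sets, 777 with no filter, 778 with median centring, 805 with quantile normalization and 725 from the 6 arrays alone. The share of calls that were higher, 35.8%, became 46.7% without CD34+ITGA6+ replicate 2. The 88 interaction calls became 144 with the mean over probe sets and 49 with the stricter filter, and ranged from 64 to 85 with an array left out. The cause of these shifts was not tested, other than fewer genes or arrays where the setting itself removes them.

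Same-numbered arrays of the K14ΔNLef1 gates deviated together at r = 0.07, 0.13 and 0.13 and those of the WT gates at 0.11, 0.12 and 0.23, and each array correlated best with its own number, but the labels do not pair the numbers. With the replicate number as a block there were 824 calls in K14ΔNLef1 mice and 101 interaction calls, and 784 calls from the 6 arrays alone with the block, a setting chosen after seeing the data. Signal limits the rest: 55.8% of calls have 1 gate near background.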

Other observations

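In 2 smaller lists, of the circadian clock and of the hair shaft and matrix lineage, the called share was 27.3% and 33.3%, against 12.9% of all tested genes. Of 11 circadian clock genes 2 were higher in CD34+ITGA6+ cells of K14ΔNLef1 mice, Bhlhe41 (2.09) and Nfil3 (0.99), and 1 was lower, the paralogue Bhlhe40 (-1.50). The call of Nfil3 was lost with 4 of the 6 arrays left out (highest adjusted p = 0.0961, without ITGA6+ replicate 2) and that of Bhlhe40 without CD34+ITGA6+ replicate 2 (adjusted p = 0.0538). Of 9 hair shaft and matrix lineage genes Dlx5 and the homeobox gene Hoxc13 (1.54) were higher and Cux1, a homeodomain factor of the inner root sheath, was lower, at 6.91, 6.91 and 7.62 against 9.15, 9.50 and 9.37. Ribosomal protein genes had a median of -0.55 with 2 of 16 lower, a called share of 12.5% that was close to the 12.9% of all tested genes. The lower count was 6 without CD34+ITGA6+ replicate 1, 1 without ITGA6+ replicate 3, and none with any of the other 4 K14ΔNLef1 arrays left out.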
